A study of Mus musculus with 12 samples.

Results

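The comparison described here sets livers that lacked Socs3 in hepatocytes and received no cytokine against control livers that had received interleukin-6 (IL-6). It asks which transcripts loss of Socs3 alone brought to, above or not to the level that IL-6 gave in control mice. Its members were chosen by the sample labels: 2 arrays of Socs3-deleted mice after PBS and 2 arrays of control mice after IL-6, 4 of the 12 arrays in the series, with every probe set that is not an array control. Socs3-deleted mice carried albumin-Cre with 1 null and 1 floxed Socs3 allele, Socs3(-/fl), and had been injected with phosphate-buffered saline (PBS). Control mice lacked albumin-Cre and carried 1 wild-type and 1 floxed allele, Socs3(w/fl), and had been injected with IL-6 or, in 2 further arrays used as the resting reference, with PBS. All were killed after 4 h, and total liver RNA was hybridised to Affymetrix mouse arrays. The other 6 arrays (Socs3-deleted mice after IL-6, and Ifng-/- mice after PBS or interferon-gamma) entered the estimate of the spread.

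Albumin-Cre is active in hepatocytes, so that the other cells of the liver kept the floxed allele. Their second allele was null in Socs3-deleted mice and wild-type in control mice. The 2 compared groups differ in genotype and in injection at once. The sources used here do not give strain, age, sex or dose. They also leave unsaid if a group's replicates came from different animals, and any p-value then reflects the spread of these arrays alone, which may be technical. The small number of arrays limits the precision.

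As background, IL-6 binds its receptor and the shared subunit gp130 on hepatocytes, the kinase JAK1 phosphorylates the transcription factor STAT3, and STAT3 drives genes of the acute phase response, the set of plasma proteins that the liver secretes in inflammation. SOCS3 is induced by STAT3, binds gp130 and ends the signal. Interferons induce a largely different set of genes, among them antiviral proteins and GTPases that act against intracellular pathogens.

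Median intensity was 80.6 to 85.7 over the 12 arrays, and the replicates of a group correlated over probe sets with r from 0.977 to 0.987. Hepatocyte markers were bright on all 12 arrays, with Alb, which encodes albumin, at 10990 to 13413. Replicate 2 of the Socs3-deleted PBS arrays stood apart in pancreatic enzyme genes. The 19 pancreatic acinar genes tested summed to an intensity of 2893 on replicate 1 and 26352 on replicate 2 of that group. The same sum was 3006 and 2999 for control IL-6 and 3145 and 11362 for control PBS. The 9 erythroid genes summed to 3991 and 7256 for Socs3-deleted PBS, 2691 and 6011 for control IL-6, and 2634 and 9382 for control PBS. Where leaving that array out moved a difference by more than 1.5-fold, the value without it is given.

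Socs3 itself, the deleted gene, was lowest in the Socs3-deleted mice. Its brighter probe set gave 76.8 and 74.4 for Socs3-deleted PBS, 124 and 117 for control PBS and 167 and 139 for control IL-6. On this probe set the 4 arrays of Socs3-deleted mice, those after IL-6 included (106 and 84.3), lay below the other 8 arrays, the lowest of which read 114. The log2 difference between Socs3-deleted PBS and control IL-6 was -1.01 (95% interval -1.41 to -0.62), and the second probe set gave -0.89 (95% interval -1.26 to -0.52). Neither passed the adjusted test described next, and the sources used here do not say if the probes lie inside the deleted part. Of the other members of the family, Socs1, Socs2, Socs5 and Cish differed by -0.11, 0.40, -0.07 and 0.06 on the log2 scale, Socs2 by -0.22 without the array with high enzyme signal. Of the 5 members tested, 2 did not overlap between the groups, both lower in Socs3-deleted mice (all genes 15.6%): Socs3, and Socs1 with an interval of -1.87 to 1.65.

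Promoters are shown for 4 genes because the genes they belong to ended at different places in the comparison: for Lcn2 and Hamp the arrays without Socs3 overlapped the IL-6 arrays, and for Igtp and Irgm1 they lay below them. The sequences are the 250 bases before the RefSeq start of each gene (GRCm38.p6), on the strand of the gene, 5′ to 3′. Capitals mark matches to TTCNNNGAA, the palindrome that STAT proteins bind, or to GAAANNGAAA, the core of the interferon-stimulated response element.
Lcn2, chr2:32387740-32387989, minus strand: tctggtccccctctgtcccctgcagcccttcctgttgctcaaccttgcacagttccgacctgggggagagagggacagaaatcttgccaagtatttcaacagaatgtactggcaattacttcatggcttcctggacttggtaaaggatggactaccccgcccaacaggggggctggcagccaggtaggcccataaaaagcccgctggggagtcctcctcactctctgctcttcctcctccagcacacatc
Hamp, chr7:30944030-30944279, minus strand: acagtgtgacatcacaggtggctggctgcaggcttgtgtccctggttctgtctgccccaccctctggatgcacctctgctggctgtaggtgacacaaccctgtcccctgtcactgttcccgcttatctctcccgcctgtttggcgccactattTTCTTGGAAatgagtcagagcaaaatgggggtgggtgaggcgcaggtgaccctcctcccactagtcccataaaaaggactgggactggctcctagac
Igtp, chr11:58199306-58199555, plus strand: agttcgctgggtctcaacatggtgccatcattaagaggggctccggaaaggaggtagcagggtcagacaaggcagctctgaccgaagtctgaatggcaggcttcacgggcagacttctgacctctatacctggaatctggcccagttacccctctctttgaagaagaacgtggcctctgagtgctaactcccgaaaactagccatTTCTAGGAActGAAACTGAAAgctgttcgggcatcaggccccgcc
Irgm1, chr11:48871421-48871670, minus strand: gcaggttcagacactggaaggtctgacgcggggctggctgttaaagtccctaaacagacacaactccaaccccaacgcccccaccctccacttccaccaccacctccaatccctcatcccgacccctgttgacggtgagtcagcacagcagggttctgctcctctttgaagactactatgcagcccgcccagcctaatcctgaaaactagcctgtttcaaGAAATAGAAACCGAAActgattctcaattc
Hamp held TTCNNNGAA from position -97 relative to the start. Igtp held TTCNNNGAA from position -45 and, 2 bases after it, GAAANNGAAA. Irgm1 held 2 overlapping matches to GAAANNGAAA, the first from position -30. In the Lcn2 window neither motif was found. Both motifs were searched on both strands in 300 bases, 250 before to 50 after the start. TTCNNNGAA occurred in 8.3% and GAAANNGAAA in 3.44% of 32851 RefSeq promoters of that length. The 4 genes do not stand for their classes: among the genes whose arrays without Socs3 overlapped the IL-6 arrays, in the set of 34 probe sets described below, 5 of 19 with a promoter in the table held GAAANNGAAA (Gbp2, Ifit1, Isg15, Saa3 and Snx10) and 2 of 19 held TTCNNNGAA. A gene was counted here if any of its promoters held the motif (Snx10 in 1 of 3), whereas the shares of 8.3% and 3.44% are per promoter. A match is a description of the letters and not of binding.

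No probe set passed the adjusted test between Socs3-deleted PBS and control IL-6. Intensities under a floor of 33.0 were set to it before log2 was taken. With limma and Benjamini-Hochberg adjustment, 0 of 9641 probe sets (0%) were called and the smallest adjusted p was 0.77. At an unadjusted p under 0.05 there were 187 probe sets (1.94%), 98 higher (1.02%) and 89 lower (0.923%) in Socs3-deleted mice, while 5% of the tests would be 482. The size of what could have been missed is given by the 95% intervals of the differences. For 9289 probe sets (96.3%) the interval lay within 2-fold in either direction, and the interval reached a median of 0.32 on the log2 scale to either side of the difference. For the other 352 (3.65%) the interval reached past 2-fold. Neither group passed the adjusted test against control PBS for any probe set either: 0 of 9641 were called for Socs3-deleted PBS (402 at an unadjusted p under 0.05, 4.17%, smallest adjusted p 0.104) and 0 for control IL-6 (248 at an unadjusted p under 0.05, 2.57%, smallest adjusted p 0.17). The differences between the groups compared here are therefore given as values, and none is a call. Control mice after PBS are called rest below, and Socs3-deleted mice after PBS are meant by without Socs3.

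Of the transcripts at least 2-fold higher after IL-6 in control mice, many lay in the same intensity range in Socs3-deleted mice that had received only PBS. To describe this, probe sets were taken whose 2 control IL-6 arrays both lay above both control PBS arrays with a mean difference of at least 2-fold. The IL-6 arrays chose them, so the counts are a description with no test. Of 34 such probe sets, 27 (79.4%) had Socs3-deleted PBS arrays whose range overlapped that of the IL-6 arrays and lay above the resting arrays, called reached here. Socs3-deleted arrays lay between resting and IL-6 arrays for 2, overlapped only the resting arrays for 3, overlapped both for 2 and lay beyond the IL-6 arrays for 0. The median log2 difference from control PBS was 1.51 after IL-6 in control mice and 1.29 in Socs3-deleted mice, 2 values that share their resting arrays. The direct difference had a median of -0.13 and ran from -1.14 to 0.72. Of the 34 intervals, 10 lay within 2-fold, and 4 others excluded 0, all of them lower without Socs3 (Igtp, both Iigp1 probe sets and a probe set with no single symbol). For the remaining 20 an equal level and a 2-fold difference both lay within the interval. Among all 1214 probe sets that were higher after IL-6 without overlap (12.6%), whatever the size, 36.7% were reached by the same definition. Of the 34, Lrg1 (log2 difference after IL-6 of 1.04) and Gbp2 (1.001) lay just inside the 2-fold limit, while Itih4 (0.96) and Pnp (0.95) lay just outside.

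The counts depended on single arrays. Without Socs3-deleted PBS replicate 1, 12 of 34 were reached, 10 lay beyond and 12 stayed short. Without replicate 2 of that group, the one with high pancreatic enzyme signal, 17 of 34 were reached, 5 lay beyond and 12 stayed short. Leaving out control IL-6 replicate 1 gave 24 probe sets with 6 reached, 9 beyond and 8 short, and leaving out replicate 2 gave 67 with 18 reached, 2 beyond and 43 short. Without control PBS replicate 1 there were 66, with 48 reached and 12 short, and without replicate 2 there were 33, with 29 reached and 3 short. A group left with 1 array has no range, so overlap is harder to meet in the first 4 of these. The median direct difference lay between -0.63 and 0.15 in those 4.

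**Figure D1:**
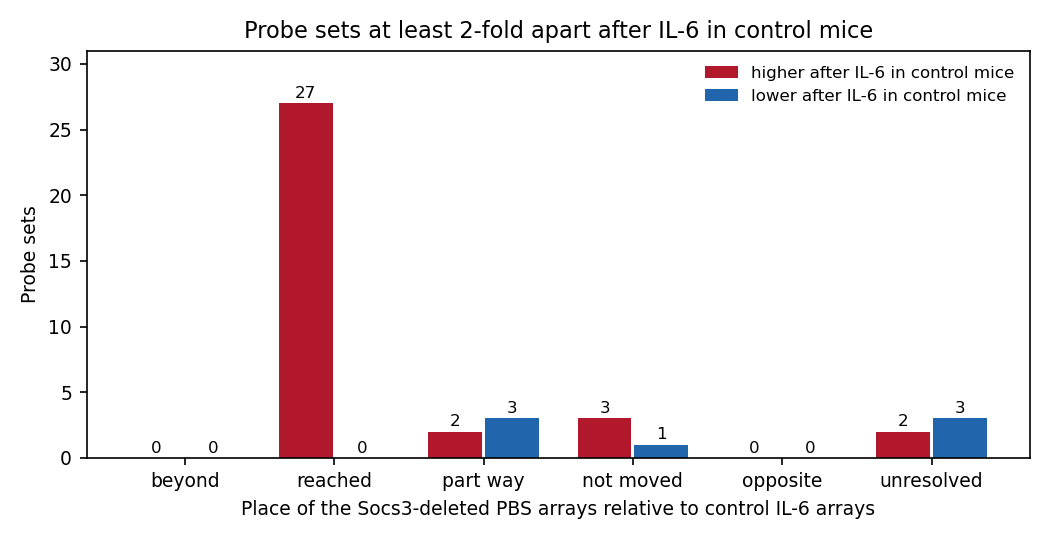
Number of probe sets (vertical axis) by the place of the 2 Socs3-deleted PBS arrays relative to the 2 control IL-6 and 2 control PBS arrays, for probe sets at least 2-fold higher (red) or lower (blue) after IL-6 in control mice. Not moved means overlap with the control PBS arrays alone, and unresolved means overlap with both. Of the 34 higher probe sets 27 were reached, and of the 7 lower ones 0 were.

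Genes of several acute phase proteins, secreted products of the hepatocyte, were among those reached. Lcn2, which encodes the iron-siderophore-binding protein lipocalin 2, read 53.5 and 31.6 at rest, 1454 and 514 after IL-6 and 1006 and 1907 without Socs3. All 4 arrays away from rest were far above both resting arrays, and the Socs3-deleted and IL-6 ranges overlapped. The direct log2 difference was 0.68 (95% interval -0.82 to 2.18), with 1.43 without IL-6 replicate 1 and -0.07 without IL-6 replicate 2. A second, dimmer Lcn2 probe set separated none of the groups by much, with a direct difference of -0.22 and a difference after IL-6 of 0.12.

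Serum amyloid A genes encode apolipoproteins of high-density lipoprotein in inflammation. The brighter Saa2 probe set gave 3254 and 545 at rest, 10438 and 7467 after IL-6 and 8619.6 and 10652 without Socs3, a direct difference of 0.12 (95% interval -2.00 to 2.24). Saa3 gave 117 and 140.4 at rest, 2786 and 442 after IL-6 and 969 and 544 without Socs3, a direct difference of -0.61 (95% interval -2.25 to 1.03). For Saa3 both Socs3-deleted arrays lay between the widely spaced IL-6 arrays, and the difference was 0.72 without IL-6 replicate 1 and -1.94 without IL-6 replicate 2. Probe sets of Saa genes share sequence and may read each other's transcripts.

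Serpina3n, a protease inhibitor, gave 8022 and 5793 after IL-6 and 5997 and 7118 without Socs3, against 2684 and 1401 at rest, with a direct difference of -0.06 (95% interval -0.87 to 0.74). Hamp, which encodes the iron hormone hepcidin, read 2169 and 1482 at rest, 4683 and 3377 after IL-6 and 4585 and 3059.5 without Socs3 (-0.09, 95% interval -0.68 to 0.51). For both genes the Socs3-deleted and IL-6 ranges overlapped and all 4 arrays lay above rest. Lrg1, a leucine-rich plasma glycoprotein, read 3269.9 and 2088 at rest, 5821 and 4943 after IL-6 and 4640.2 and 7329 without Socs3 (0.12, 95% interval -0.55 to 0.79).

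Apcs, which encodes serum amyloid P, gave 498 and 383 at rest, 1548 and 1364 after IL-6 and 1471 and 3876 without Socs3. Socs3-deleted replicate 1 lay among the IL-6 arrays and replicate 2 above them, so that the direct difference of 0.72 (95% interval -0.26 to 1.70) became 0.02 without replicate 2. Orm2, an alpha-1-acid glycoprotein, showed the same array above the others, with 965 and 3072 without Socs3 against 1335 and 1566 after IL-6 and 593 and 385 at rest, and a direct difference of 0.25 that was -0.58 without it. A2m, the broad protease inhibitor alpha-2-macroglobulin, was below the floor of the fit at rest (23.6 and 26.8), read 302 and 31.6 after IL-6, with replicate 2 again below the floor, and 86.8 and 96.8 without Socs3. Its difference of -0.12 was 1.47 without IL-6 replicate 1 and -1.72 without replicate 2.

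Across the acute phase list, 30 of 36 genes were tested and 0 were called in either direction. The median direct difference was 0.06, against 0 for all genes tested to 2 decimals. Socs3-deleted PBS arrays lay above both resting arrays without overlap for 21 of the 30 (all genes 16.4%), and IL-6 arrays did so for 21 (all genes 13.1%), comparisons that share the resting arrays. Between Socs3-deleted PBS and control IL-6, 4 of the 30 did not overlap in the higher direction and 2 in the lower, next to 14.7% and 15.6% of all 6976 genes. For 22 of 30 the interval lay within 2-fold. Several genes were measured closely: the direct difference was 0.00 (95% interval -0.26 to 0.26) for the fibrinogen chain Fga, 0.04 (95% interval -0.31 to 0.38) for Fgg, 0.13 (95% interval -0.17 to 0.43) for Fgb, 0.06 (95% interval -0.21 to 0.33) for haptoglobin (Hp) and 0.06 (95% interval -0.37 to 0.50) for Itih4, a chain related to the inter-alpha-trypsin inhibitor. Without each array of the 2 groups in turn, the list's median stayed between -0.06 and 0.15. 

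For 2 members of the list the interval excluded 0, as it did for 2.06% of all genes. Itih3, another heavy chain of the inter-alpha-trypsin inhibitor family, read 2719.9 and 2673 at rest, 4229 and 4007 after IL-6 and 4858 and 5330.0 without Socs3, a direct difference of 0.31 (95% interval 0.01 to 0.60). Vnn1, the enzyme pantetheinase, read 126 and 163 at rest, 216 and 252 after IL-6 and 83.7 and 159.6 without Socs3, a direct difference of -1.01 (95% interval -1.71 to -0.32). Itih3 was thus above the IL-6 arrays in both Socs3-deleted arrays and Vnn1 below them in both, with 1 of the 2 arrays inside its resting range.

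**Figure D2:**
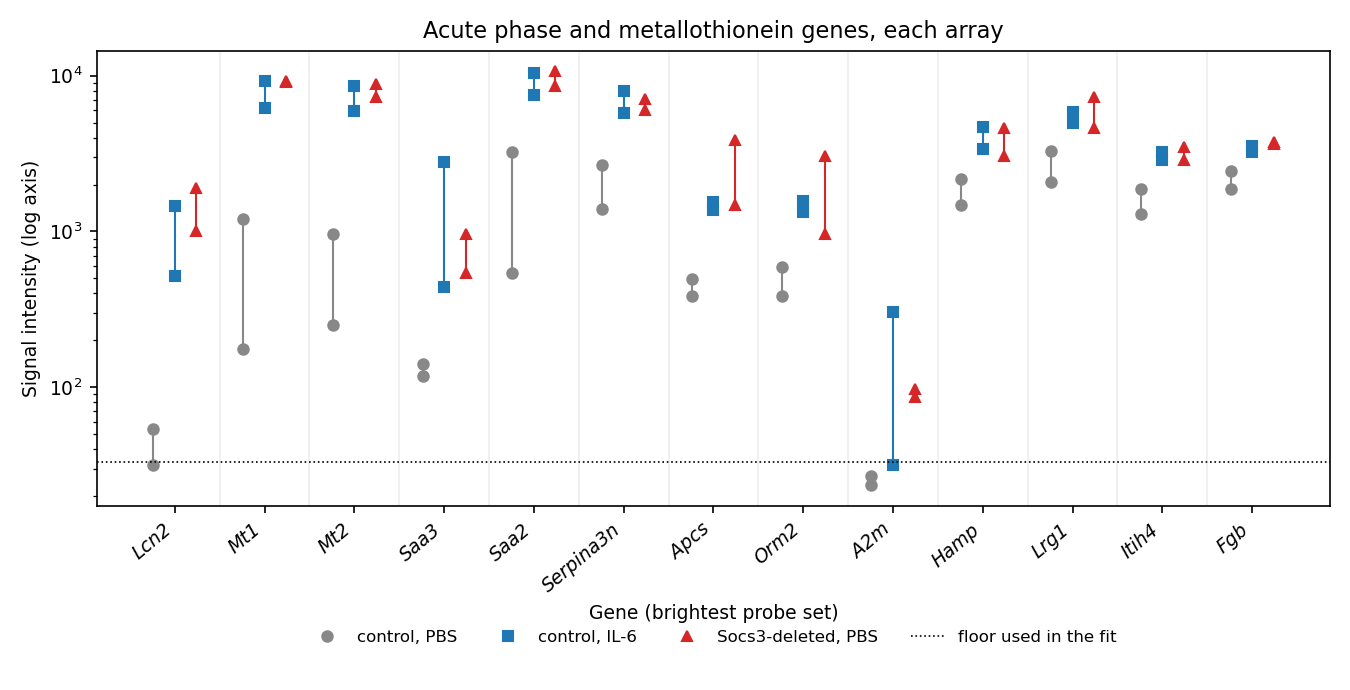
Signal intensity (log axis) of 13 acute phase and metallothionein genes on each array, with grey circles for control PBS, blue squares for control IL-6 and red triangles for Socs3-deleted PBS, a line joining the 2 arrays of a group and a dotted line at the floor. For Lcn2, Mt1, Mt2, Saa3, Saa2, Serpina3n and Hamp the red and blue ranges overlap and lie above the grey one.

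The metallothioneins Mt1 and Mt2, small proteins that bind zinc and copper, were among the most elevated transcripts in both groups. Mt1 read 1197 and 176 at rest, 9294 and 6158 after IL-6 and 9266 and 9157 without Socs3. Mt2 read 967 and 252 at rest, 8547 and 5889.6 after IL-6 and 8874 and 7309 without Socs3. The direct differences were 0.28 (95% interval -2.01 to 2.58) and 0.18 (95% interval -2.19 to 2.55). These intervals are wide, and the 2 resting arrays alone lay more than 2-fold apart for both genes. Of the 13 genes of the list of metallothioneins and of iron and haem handling, 0 were called, 1 did not overlap in the higher and 0 in the lower direction (all genes 14.7% and 15.6%), and the median was 0.06. Gas6, a ligand of the TAM receptor kinases, was the reached gene with the narrowest interval: 136 and 123 at rest, 302 and 251 after IL-6 and 248 and 316 without Socs3, a direct difference of 0.02 (95% interval -0.29 to 0.33).

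Interferon-inducible genes were split between reached and short. The named genes that stayed short were Igtp, Iigp1 and Irgm1, immunity-related GTPases that act against intracellular parasites and bacteria, beside 1 probe set with no single gene symbol. Ifi47, a GTPase of the same family, was reached, and the family was not tested as a list. Igtp read 124 and 94.4 at rest, 551 and 184 after IL-6 and 179 and 116 without Socs3, a direct difference of -1.14 (95% interval -2.09 to -0.19). Iigp1 on its brighter probe set read 2289 and 1782 at rest, 5695 and 3328 after IL-6 and 2279 and 3091 without Socs3 (-0.71, 95% interval -1.26 to -0.17), and its second probe set differed by -0.94 (95% interval -1.51 to -0.37). Irgm1 read 86.7 and 69.5 at rest, 227 and 128 after IL-6 and 105 and 111 without Socs3 (-0.66, 95% interval -1.38 to 0.05). In each the Socs3-deleted arrays lay below both IL-6 arrays, and for Igtp and the brighter Iigp1 probe set they overlapped the resting arrays. Control IL-6 replicate 1 was the higher of its pair in all of them, and without it the differences were smaller, -0.35 for Igtp and -0.33 for Iigp1.

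Over the interferon-gamma-inducible list, 29 genes were tested and 0 were called. The median direct difference was -0.09. Socs3-deleted arrays lay below both IL-6 arrays for 7 genes (24.1%, all genes 15.6%) and above both for 0 (all genes 14.7%). 4 genes had an interval below 0: Iigp1, Igtp, Tap1, which encodes a peptide transporter of antigen presentation, at -0.67 (95% interval -1.22 to -0.12), and Lgals3bp, a secreted galectin-binding protein, at -0.33 (95% interval -0.64 to -0.02). The second, dimmer Tap1 probe set had an interval of -0.41 to 0.41. The summed intensity of the list was 13146 and 8307 after IL-6, 7549 and 8054 without Socs3, and 6830 and 5701 at rest. The 2 IL-6 arrays were thus further apart than the 2 groups, and the list's median was 0.01 without IL-6 replicate 1 and -0.27 without replicate 2.

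Genes induced chiefly by type I interferon lay on both sides of the IL-6 arrays. Isg15, a ubiquitin-like modifier, read 182 and 161 at rest, 1635 and 299 after IL-6 and 539 and 332 without Socs3 (-0.72, 95% interval -2.09 to 0.65). Ifit1, an RNA-binding antiviral protein, read 58.9 and 52.4 at rest, 426 and 116 after IL-6 and 529.7 and 67.8 without Socs3 (-0.23, 95% interval -2.09 to 1.63). In both genes the 2 IL-6 arrays were more than 2-fold apart, and for Ifit1 the Socs3-deleted arrays were too. Without IL-6 replicate 1 the difference was 0.50 for Isg15 and 0.71 for Ifit1, and without IL-6 replicate 2 it was -1.95 and -1.17. The Ifit1 difference was 1.25 without the Socs3-deleted array with high enzyme signal. Rsad2, which encodes the antiviral enzyme viperin, lay above both IL-6 arrays in both Socs3-deleted arrays, with 308 and 137 against 136 and 121 and 73.5 and 103 at rest (0.68, 95% interval -0.08 to 1.44). Of 19 genes tested, 0 were called, 2 did not overlap in the higher and 1 in the lower direction (all genes 14.7% and 15.6%), and the median was -0.13, with 0.11 without IL-6 replicate 1 and -0.33 without replicate 2. Ifi47, Gbp2 and Cxcl9, of the interferon-gamma list, were reached with direct differences of -0.72, 0.16 and -0.11, and each had 1 IL-6 array more than 2-fold above the other. Without IL-6 replicate 1 these were 0.15, 0.77 and 0.62, and without the array with high enzyme signal -0.64, 1.13 and 0.72. The 6 MHC class I genes tested, which present peptides to T cells, differed by -0.06 to -0.01.

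**Figure D3:**
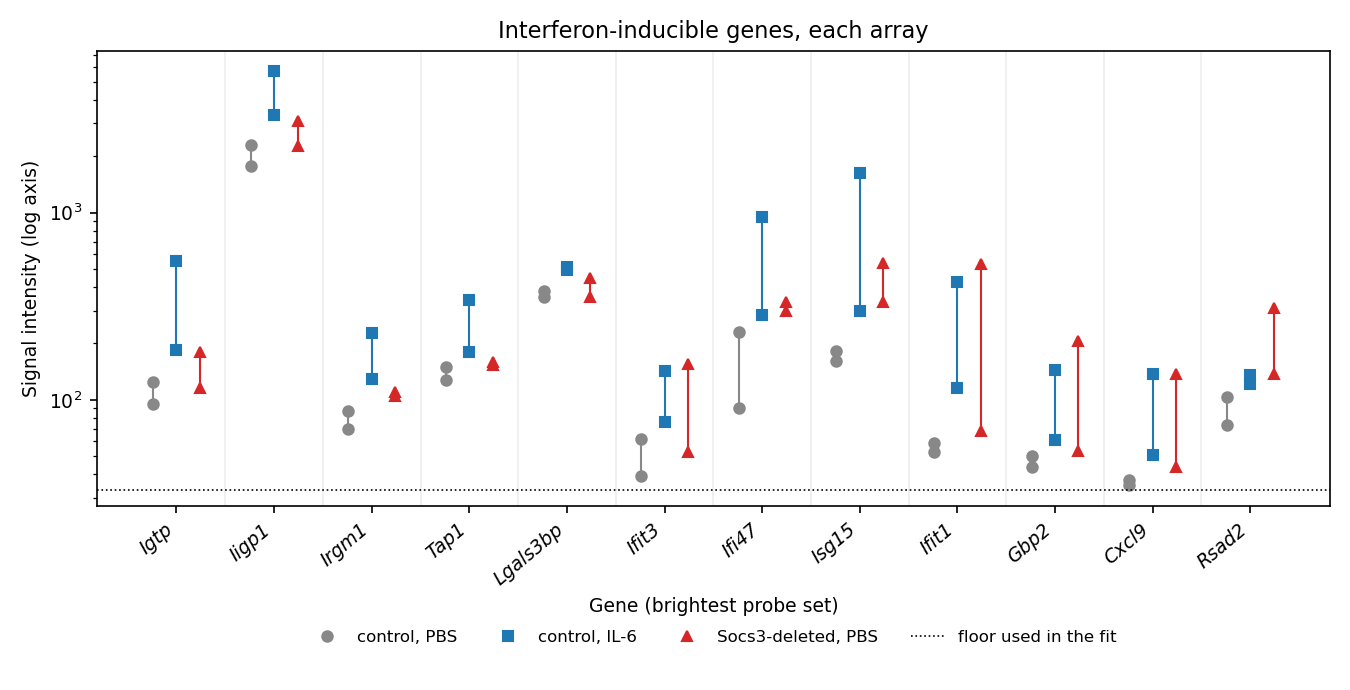
Signal intensity (log axis) of 12 interferon-inducible genes on each array, with symbols as in the plot of acute phase genes. For Igtp, Iigp1, Irgm1, Tap1 and Lgals3bp both red triangles lie below both blue squares, while for Isg15, Ifit1 and Gbp2 the ranges overlap.

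Of the 7 probe sets at least 2-fold lower after IL-6 in control mice, 0 were reached without Socs3. Of all 1378 that were lower without overlap (14.3%), whatever the size, 31.5% were. Ddc, the enzyme aromatic L-amino acid decarboxylase, read 353 and 728 at rest, 129 and 154 after IL-6 and 212 and 325 without Socs3, part way between (0.90, 95% interval -0.02 to 1.81). G6pc, the glucose-6-phosphatase that releases glucose from the liver, read 1711 and 1569 at rest, 682 and 641 after IL-6 and 1164 and 1521 without Socs3, closer to rest than to IL-6 (1.01, 95% interval -0.02 to 2.04). Egr1, an immediate-early transcription factor, read 326 and 728 at rest, 146 and 126 after IL-6 and 178 and 148 without Socs3, close to the IL-6 arrays (0.26, 95% interval -0.60 to 1.11). Noct, which encodes the circadian protein nocturnin, differed by 0.93 on this probe set (1.64 without the array with high enzyme signal) and 0.02 on its brighter one. The remaining 3, Cela1, Zg16 and Hsd3b2, overlapped everything; Cela1 and Zg16 are pancreatic genes on the list above, with Cela1 at 454 and 5931 in the 2 Socs3-deleted arrays. Their differences of 1.68, 1.65 and 1.099 were -0.17, 0.03 and 0.20 without replicate 2. Without Socs3-deleted replicate 2, 2 of the 7 were reached and 1 lay beyond. Leaving out control PBS replicate 1 gave 6 of 27 reached, and leaving out replicate 2 gave 5 of 11.

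A second set of genes was chosen without either group of the comparison, from Socs3-deleted mice after IL-6 against control mice after PBS. limma called 351 probe sets there at an adjusted p under 0.05 (3.64%), 266 higher (2.76%) and 85 lower (0.882%). Over the 266, the median log2 difference from control PBS was 0.32 in Socs3-deleted PBS and 0.35 in control IL-6, next to 1.12 in Socs3-deleted mice after IL-6, which chose them. All 3 share the resting arrays. The direct difference, whose group means did not enter the choice, had a median of -0.03, with the 10th percentile at -0.36 and the 90th at 0.25. Groups did not overlap in the higher direction for 36 (13.5%) and in the lower for 47 (17.7%), next to 14.1% and 16.1% of all probe sets. The interval lay within 2-fold for 227 (85.3%), a share that is not independent of the choice, because both use the same spread. Over the 85, the median direct difference was -0.02, from medians of -0.30 in Socs3-deleted PBS and -0.25 in control IL-6. Of these 85, 18 (21.2%) did not overlap in the higher direction and 24 (28.2%) in the lower, next to 14.1% and 16.1% of all probe sets. The shares without overlap, over the 266 and the 85, are not independent of the choice either. The choice used a spread that includes the compared arrays, and a small spread makes overlap rarer in both directions.

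Some transcripts were higher without Socs3 than after IL-6. At least 2-fold with no overlap of arrays were 21 probe sets in the higher direction (0.218%) and 6 in the lower (0.0622%), and none was called. The 20 higher probe sets with 1 symbol were 19 genes, of which 6 are on the pancreatic acinar list, whose summed level on each array is given above. The 11 genes named by lowest p are not on that list. Tff3, a trefoil factor secreted with mucus, led them: 274 and 282 at rest, 237 and 269 after IL-6 and 1709 and 781 without Socs3, a direct difference of 2.19 (95% interval 1.43 to 2.95). The array with high pancreatic enzyme signal was the lower of the pair, and without it the difference was 2.76.

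Igfbp1, a binding protein of insulin-like growth factors made by the liver, read 223 and 66.6 at rest, 120.0 and 65.3 after IL-6 and 1010.0 and 266 without Socs3 (2.55, 95% interval 0.87 to 4.23). Cxcl1, a chemokine that attracts neutrophils, read 455 and 133 at rest, 503 and 255 after IL-6 and 1597 and 1727 without Socs3 (2.21, 95% interval 0.04 to 4.38), and its second probe set differed by 2.29 (95% interval 0.07 to 4.51). For Igfbp1 the 2 Socs3-deleted arrays were far from each other, with a difference of 1.59 without replicate 1 and 3.51 without replicate 2, and for Cxcl1 they were close. Sgk1, a kinase induced by glucocorticoids, read 211 and 137 without Socs3 against 72.9 and 81.0 after IL-6 and 93.0 and 87.8 at rest (1.15, 95% interval 0.64 to 1.65). Slc38a2, a transporter of neutral amino acids, read 373 and 175 without Socs3, 68.5 and 120.2 after IL-6 and 139.6 and 80.5 at rest (1.495, 95% interval 0.44 to 2.55). Gadd45g, a stress-induced growth arrest gene, read 492 and 269 without Socs3, 133 and 148 after IL-6 and 84.0 and 229 at rest (1.38, 95% interval 0.33 to 2.42).

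The remaining 5 were Wsb1, a ubiquitin ligase adaptor with a SOCS box (1.32, 95% interval 0.61 to 2.02), Retreg1, a receptor for autophagy of the endoplasmic reticulum (1.34, 95% interval 0.43 to 2.25), Cpeb2, an mRNA-binding regulator of translation (1.09, 95% interval 0.57 to 1.62), Atp11a, a phospholipid flippase (1.01, 95% interval 0.50 to 1.51), and the transcription factor Nfil3 (1.06, 95% interval 0.00 to 2.12). The interval of this Nfil3 probe set just held 0, and Nfil3's brighter probe set differed by 0.29 (95% interval 0.06 to 0.52). For all 11 genes both resting arrays also lay below both Socs3-deleted arrays. All 11 were chosen for arrays that do not overlap, so leaving out an array could not change the sign of the difference from the IL-6 arrays. The other alternative settings reuse the same arrays, and the differences stayed positive in those that tested them.

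Beside Socs3, Igtp and Vnn1, the genes at least 2-fold lower without overlap were Serpina12, which encodes the adipokine vaspin, and Dbp, a transcription factor of clock output. Serpina12 read 415 and 302 at rest, 329 and 327 after IL-6 and 85.0 and 232 without Socs3 (-1.23, 95% interval -2.20 to -0.25). Here the IL-6 arrays matched the resting arrays and both Socs3-deleted arrays were lower. Without Socs3-deleted replicate 1 the difference was -0.50, and without replicate 2 it was -1.95. Dbp read 197 and 32.6 at rest, 107 and 107 after IL-6 and 74.8 and 34.2 without Socs3, with an interval that held 0 (-1.08, 95% interval -2.85 to 0.69).

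**Figure D4:**
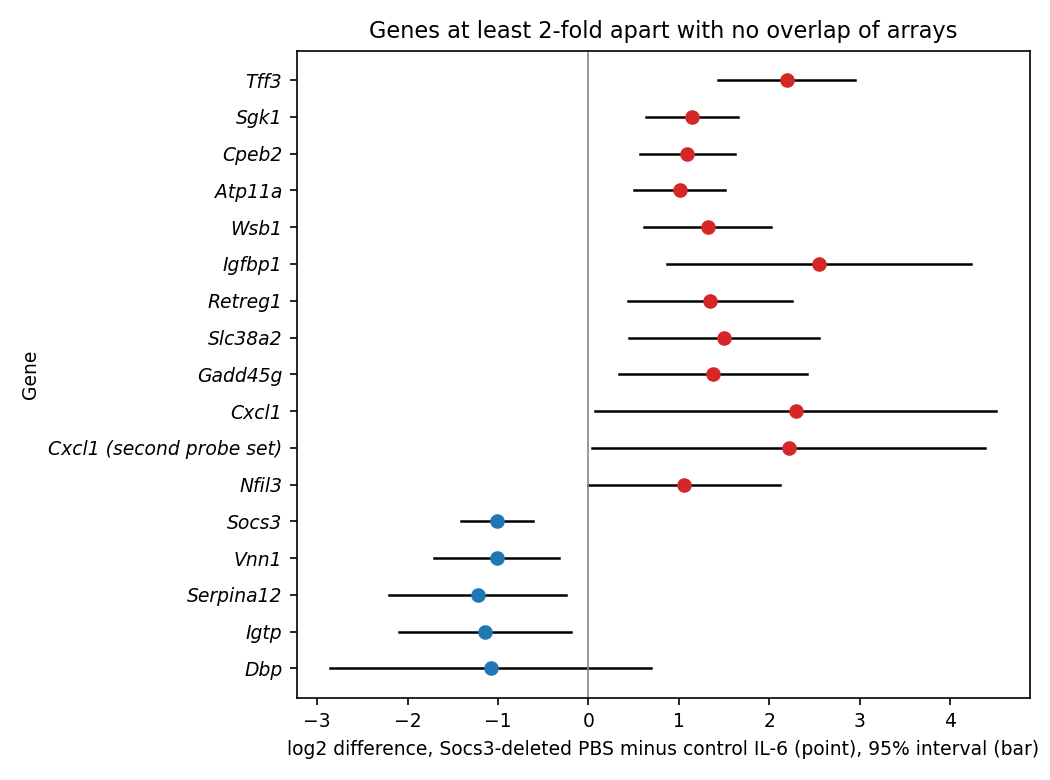
log2 difference between Socs3-deleted PBS and control IL-6 (point) with its 95% moderated interval (bar) for the 17 probe sets named in either direction among those at least 2-fold apart without overlap. The intervals are widest for Igfbp1, Cxcl1 and Dbp. That of Dbp crosses 0, and that of Nfil3 just holds 0 at its lower end.

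Regulators upstream showed small differences. Il6ra, the IL-6 receptor chain, read 238 and 227 at rest, 189 and 217 after IL-6 and 278 and 304 without Socs3 (0.52, 95% interval 0.19 to 0.85). Osmr, the receptor of the related cytokine oncostatin M, differed by 0.43 (95% interval 0.02 to 0.84). Stat3 read 556 and 379 at rest, 799.9 and 647 after IL-6 and 636 and 422 without Socs3 (-0.47, 95% interval -1.05 to 0.10), so that both receptor genes were above and Stat3 below the IL-6 arrays. Of the 18 genes of IL-6 receptors and JAK-STAT tested, 0 were called, 4 did not overlap in the higher and 3 in the lower direction (all genes 14.7% and 15.6%), and the median was 0.04.

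Among 32 STAT3-linked and immediate-early regulators, 0 were called, 11 did not overlap in the higher direction (34.4%, all genes 14.7%) and 5 in the lower (all genes 15.6%). The median was 0.11, with 0.006 without Socs3-deleted replicate 1 and 0.19 without replicate 2. Of the 32, 6 had an interval above 0. Cebpd, a transcription factor of the acute phase response, read 187 and 115 at rest, 178 and 141 after IL-6 and 342 and 268 without Socs3 (0.94, 95% interval 0.21 to 1.66). Klf9, a Kruppel-like factor, read 403 and 479 without Socs3 against 274 and 306 after IL-6 (0.60, 95% interval 0.34 to 0.87), and its dimmer probe set differed by -0.01. Nfkbiz, an atypical inhibitor of NF-kappaB, differed by 0.50 (95% interval 0.14 to 0.86), the phosphatase Dusp1 by 0.97 (95% interval 0.07 to 1.87), and the cell cycle inhibitor Cdkn1a by 0.29 (95% interval 0.01 to 0.57). Gadd45g is the sixth. Without the array with high enzyme signal the Dusp1 difference was 1.69, and without the other Socs3-deleted array 0.24. After IL-6 these 6 genes differed from rest by -0.46 to 0.11 on the log2 scale.

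Metabolic genes of the hepatocyte differed in both directions, with none called. In the urea cycle and amino acid catabolism list, 11 of 20 genes lay above both IL-6 arrays without overlap (55.0%) and 0 below (all genes 14.7% and 15.6%), with a median of 0.15. Slc25a15, the mitochondrial ornithine carrier, read 2051 and 1961 without Socs3 against 1426 and 1539.8 after IL-6 and 1851 and 1837 at rest (0.44, 95% interval 0.23 to 0.64). In this list the IL-6 arrays were on the low side of rest, with a median of -0.13, and the Socs3-deleted arrays were not, with 0.06. Complement and coagulation factors lay above the IL-6 arrays without overlap for 12 of 29 (41.4%) and below for 0 (all genes 14.7% and 15.6%), with a median of 0.13 and all 29 intervals within 2-fold. This median was 0.03 without IL-6 replicate 1 and 0.24 without IL-6 replicate 2. Hc, complement C5, read 1887 and 1913 against 1259.6 and 1541 after IL-6 (0.45, 95% interval 0.15 to 0.74), C9, a pore-forming component, differed by 0.55 (95% interval 0.10 to 0.995), and Cfi, a protease that inactivates C3b, by 0.34 (95% interval 0.04 to 0.64). C1qa, C1qb and C1qc, which macrophages make, are on this list and on the macrophage list described below.

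Fatty acid oxidation genes lay on the lower side. Of 18 tested, 7 lay below both IL-6 arrays without overlap (38.9%, all genes 15.6%) and 0 above, and the median was -0.16. Acaa1b, a peroxisomal thiolase, read 3769 and 2747 at rest, 3271 and 2805 after IL-6 and 2051 and 1581 without Socs3 (-0.75, 95% interval -1.15 to -0.35), and its second probe set differed by -0.69 (95% interval -1.12 to -0.27). Fabp1, the liver fatty acid-binding protein, differed by -0.30 (95% interval -0.57 to -0.03), and its dimmer probe set by -0.04. From rest, the list's median was 0.03 after IL-6 and -0.19 without Socs3. The median direct difference was -0.39 without IL-6 replicate 1 and -0.07 without replicate 2.

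Cyp7b1, an oxysterol hydroxylase of bile acid synthesis, read 1192 and 1267 at rest, 948 and 924 after IL-6 and 365 and 704 without Socs3 (-0.88, 95% interval -1.45 to -0.32). Without Socs3-deleted replicate 1 the difference was -0.41, and without replicate 2 it was -1.36. Its second probe set gave -0.87 (95% interval -1.39 to -0.34). Cyp8b1, the sterol 12-alpha-hydroxylase, read 2001 and 1465 at rest, 1329.6 and 1421 after IL-6 and 799 and 1024 without Socs3 (-0.60, 95% interval -1.19 to -0.01). Both enzymes lay below both IL-6 arrays, and these lay below the resting arrays. Slc2a2, the glucose transporter GLUT2, differed by -0.65 (95% interval -1.23 to -0.07), Me1, the cytosolic malic enzyme, by -0.80 (95% interval -1.31 to -0.29), Bcl6, a transcriptional repressor, by -0.94 (95% interval -1.75 to -0.12), and the cholesterol exporter Abca1 by -0.37 (95% interval -0.71 to -0.03). The cytochrome P450 list as a whole had 2 genes higher and 5 lower without overlap of 26 tested (all genes 14.7% and 15.6%). Its interval excluded 0 for 2 lower genes, Cyp7b1 and Cyp8b1, and 1 higher gene, Cyp17a1 (0.53, 95% interval 0.04 to 1.01). The Cyp17a1 difference was 0.11 without Socs3-deleted replicate 1 and 0.94 without replicate 2.

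Markers of other liver cells were followed as well. In bulk RNA, fewer cells of a type and less RNA per cell cannot be told apart. Of 19 Kupffer cell and macrophage markers, 10 lay above both IL-6 arrays in Socs3-deleted mice without overlap (52.6%) and 0 below (all genes 14.7% and 15.6%), and the median was 0.23, or 0.14 without the array with high enzyme signal. Their summed intensity was 4516 and 5335 without Socs3, 4131 and 4264 after IL-6, and 4185 and 3705 at rest. None of the 19 was called or had an interval that excluded 0, and the defining markers were above the floor on all arrays, with Clec4f at 389 to 689. Their part in the differences above was not tested. Neutrophil markers S100a8 and S100a9 were near the floor, at 23.01 to 57.4 over all arrays. Ngp (43.7 to 50.2), Ltf (65.4 to 80.65) and Camp (147 to 190) were above it on all 12 arrays. Of 11 neutrophil genes tested, 1 (9.09%) did not overlap in the higher direction and 4 (36.4%) in the lower (all genes 14.7% and 15.6%). The neutrophil list's median was -0.04. Endothelial, stellate, T and NK cell, B cell and cholangiocyte lists had medians from -0.11 to 0.04. The pancreatic list's median of 1.39 was 0.03 without the array that stood apart.

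**Figure D5:**
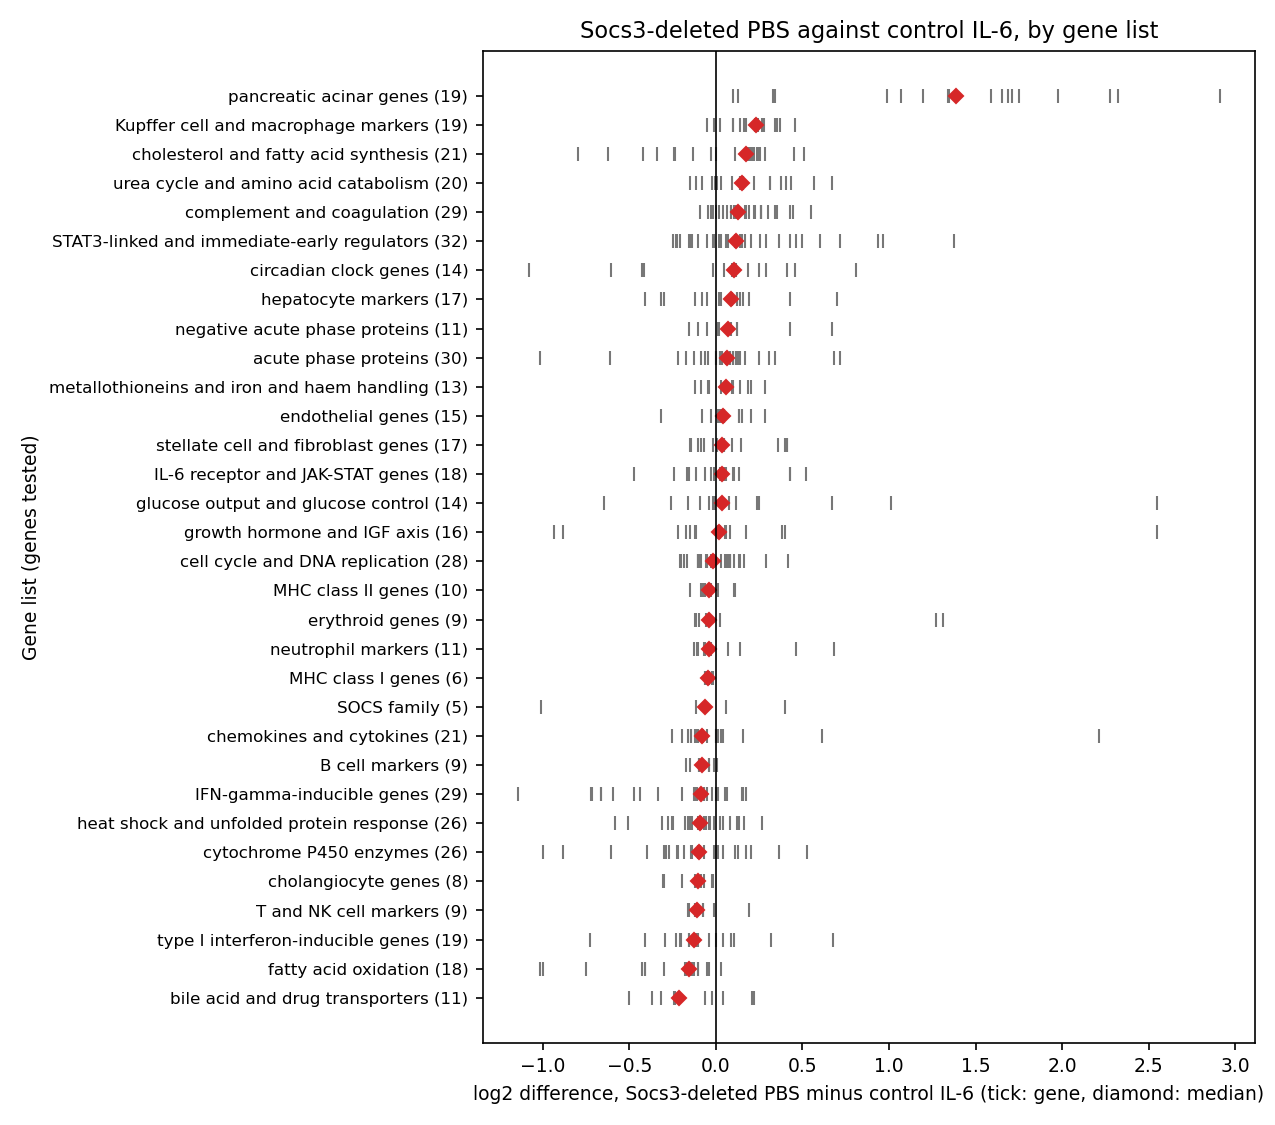
log2 difference between Socs3-deleted PBS and control IL-6 for the genes of each of the 32 lists (ticks) and the list's median (diamonds), with the number of genes tested in brackets. Medians lie between -0.21 and 0.23 for 31 lists, and the pancreatic acinar list is apart at 1.39.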

How the data were processed

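Liver RNA was measured in 12 samples (6 groups of 2) on Affymetrix mouse arrays, and the deposited table holds a linear signal intensity for each probe set on each array. The sources used here do not say how the authors derived the intensity values (software, background, scaling). Groups were taken from the sample labels. Of 12488 probe sets, 66 array controls were left out. Intensities under 33.0, the 25th percentile, were set to that floor, log2 was taken, and probe sets above it on at least 2 arrays were kept, 9641 in all. Differences of genes near the floor are understated. In R 4.3.3, limma 3.58.1 fitted 6 group means to the 12 arrays (6 residual and 3.38 prior degrees of freedom). P-values are two-sided and adjusted by Benjamini-Hochberg over all probe sets tested (threshold 0.05), and intervals are 95% moderated ones. With 2 arrays against 2, an exact permutation test of 1 value cannot go below p = 0.333. The platform annotation gave 10833 probe sets 1 gene symbol, 396 several and 1193 none, and none was named from several. In the lists each gene is read from its brightest probe set.

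The members, the 32 gene lists and the rules were chosen with earlier results of these data known. Named genes were Socs3, then up to 12 per direction by size among called probe sets or, with none called, by lowest p among those at least 2-fold apart without overlap, up to 3 per list, up to 6 per class of IL-6 response, and acute phase and SOCS members. Isg15, Ifit1, Ifi47, Gbp2, Cxcl9, Gas6, Pnp, Lgals3bp, Cebpd and Dusp1 were added with their values known. Code was tested on simulated data. Alternatives were other scalings, floors, filters, variance settings, sets of arrays, a replicate block and leaving out each array, and, chosen after seeing the data, a fit without the 2 arrays rich in pancreatic enzyme signal. Promoter sequences and motif counts came from RefSeq (GRCm38.p6), where 40 of 49 genes matched.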

Additional observations from a re-analysis of the deposited data

How the results depend on the processing

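For Socs3-deleted PBS against control IL-6, 0 probe sets were called in 17 of 18 alternative settings. Without Socs3-deleted PBS replicate 1, which leaves in that group the array with high pancreatic enzyme signal, limma called 4 (Klk1b22, Reg3b, Rnase1 and Tff2, all higher), of which Reg3b and Rnase1 are on the pancreatic list; 1 of them, Rnase1, was called on the probe set that stands for the gene in the list. Leaving out arrays gave 0 to 8 calls for Socs3-deleted against control PBS and 0 to 8 for IL-6 against PBS in control mice. An arm left with 1 array is assumed to vary like the others. Leaving out an array also changed which probe sets were at least 2-fold higher after IL-6 (24 to 67, 34 with all arrays), with 6 to 48 of them reached and 3 to 43 short (27 and 5 with all arrays). Without the 2 arrays rich in pancreatic enzyme signal 11 stayed short. With a 1.5-fold limit 65 of 102 were reached and 22 stayed short. For the 85 probe sets lower in Socs3-deleted mice after IL-6, the median direct difference was -0.02 with all arrays, -0.13 to 0.14 when an array was left out (the ends without control IL-6 replicates 1 and 2) and 0.21 without the 2 pancreatic arrays. The samples share only a replicate number. The correlation of same-numbered deviations was 0.002 between Socs3-deleted PBS and control IL-6. It was 0.31 between Socs3-deleted PBS and control PBS, and 0.14 between control IL-6 and control PBS. Over all pairs of groups it ran from -0.25 to 0.66, the highest between both groups of Ifng-/- mice. With the replicate number as a block, 0 probe sets were called (smallest adjusted p 0.527, 234 at an unadjusted p under 0.05, against 187 without the block). Of 142 named probe sets, 40 changed sign in some setting, and none of these had an interval that excluded 0.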
